A study of Macaca fascicularis with 86 samples.

Results

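TBXT, EOMES, MIXL1, EVX1 and SP5 are 5 transcription factors of the primitive streak, followed here through 86 laser-captured regions of gastrulating crab-eating macaque embryos (Macaca fascicularis). They were taken by name, 5 of the 17023 genes in the deposited table, and all 5 passed the filter on low values (1 TPM or more in at least 10 regions), as did 15216 genes in all. The E20 group is 1 embryo, of which 7 sections gave 36 regions. The E18 groups are embryo 2, with 35 regions from 6 sections, and embryo 1, with 15 regions from 4 sections. The labels set the embryos apart by stage and number alone, and give no strain, sex, treatment or genetic change for any of them. The protocol is Geo-seq, in which polyadenylated RNA from a captured piece of 5 to 50 cells is sequenced. Sections of an embryo and sectors of a section carry numbers, and the labels give neither the germ layer of a region, nor how regions were chosen, nor the end at which numbering begins.

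Values are TPM, a share of all transcripts scaled for their length, so levels of different genes can be set side by side. TPM keeps no read count, so the depth behind a value is unknown, and because HPRT1, a gene of general metabolism, was listed at 0 in 6 regions, a 0 below means only that the gene was listed at 0. ACTB and GAPDH were listed at 0 in 0 regions. Genes at 1 TPM or more numbered 6194 to 10950 in E20 regions, 11091 to 13958 in regions of E18 embryo 2 and 7815 to 11516 in regions of E18 embryo 1. In captured pieces of mixed tissue, fewer cells of a type and less RNA per cell cannot be told apart.

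The primitive streak is the site at which epiblast cells leave the epithelium and become mesoderm and definitive endoderm. NODAL, WNT and BMP signals induce it. Brachyury (TBXT) and EOMES are T-box factors: in the mouse, EOMES acts with NODAL and SMAD proteins in the first cells of the streak and is required for definitive endoderm and early mesoderm, while TBXT is required for later mesoderm and marks the streak and the notochord. MIXL1 is a paired-type homeobox factor of the streak with a role in endoderm formation. EVX1 is a homeobox factor of the even-skipped family that marks the proximal and posterior streak in the mouse. SP5 is a zinc finger factor of the SP family and a direct target of WNT signalling that limits the response of other WNT targets.

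The T-box factor TBXT was the least widely detected of the 5, at 1 TPM or more in 36 of 86 regions. In the E20 embryo its lowest, median and highest levels were 0, 0 and 63.9 TPM, with 30 of 36 regions at 0. In E18 embryo 2 they were 0, 7.24 and 221 TPM, and in E18 embryo 1 they were 0, 0 and 50.4 TPM. A few regions held most of the signal: the highest region carried 72.0% of the TBXT summed over the E20 regions, 22.8% in E18 embryo 2 and 55.5% in E18 embryo 1. EOMES, the other T-box factor, was at 1 TPM or more in 57 regions. Its lowest, median and highest levels were 0, 0 and 504.5 TPM in the E20 embryo, 0.310, 108.9 and 562 TPM in E18 embryo 2, and 0, 15.96 and 166 TPM in E18 embryo 1. The 3 ranges overlapped for both genes, and E18 embryo 2 was the one embryo in which EOMES was listed at 0 in no region.

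Of the homeobox factors, MIXL1 reached the highest level of the 5 genes. Its lowest, median and highest levels were 0, 0 and 933 TPM in the E20 embryo, 0, 13.04 and 699 TPM in E18 embryo 2, and 0, 8.87 and 550.2 TPM in E18 embryo 1. EVX1 stayed lower, at 0, 0 and 62.3 TPM in the E20 embryo, 0, 12.4 and 93.5 TPM in E18 embryo 2, and 0, 0.806 and 13.2 TPM in E18 embryo 1. In E18 embryo 1 EVX1 thus stayed below its level in the top regions of the other two embryos. SP5 had 0, 0 and 91.0 TPM in the E20 embryo, 0, 9.59 and 104.8 TPM in E18 embryo 2, and 0, 7.56 and 54.1 TPM in E18 embryo 1. Regions at 1 TPM or more numbered 55 of 86 for MIXL1, 40 for EVX1 and 53 for SP5.

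**Figure D1:**
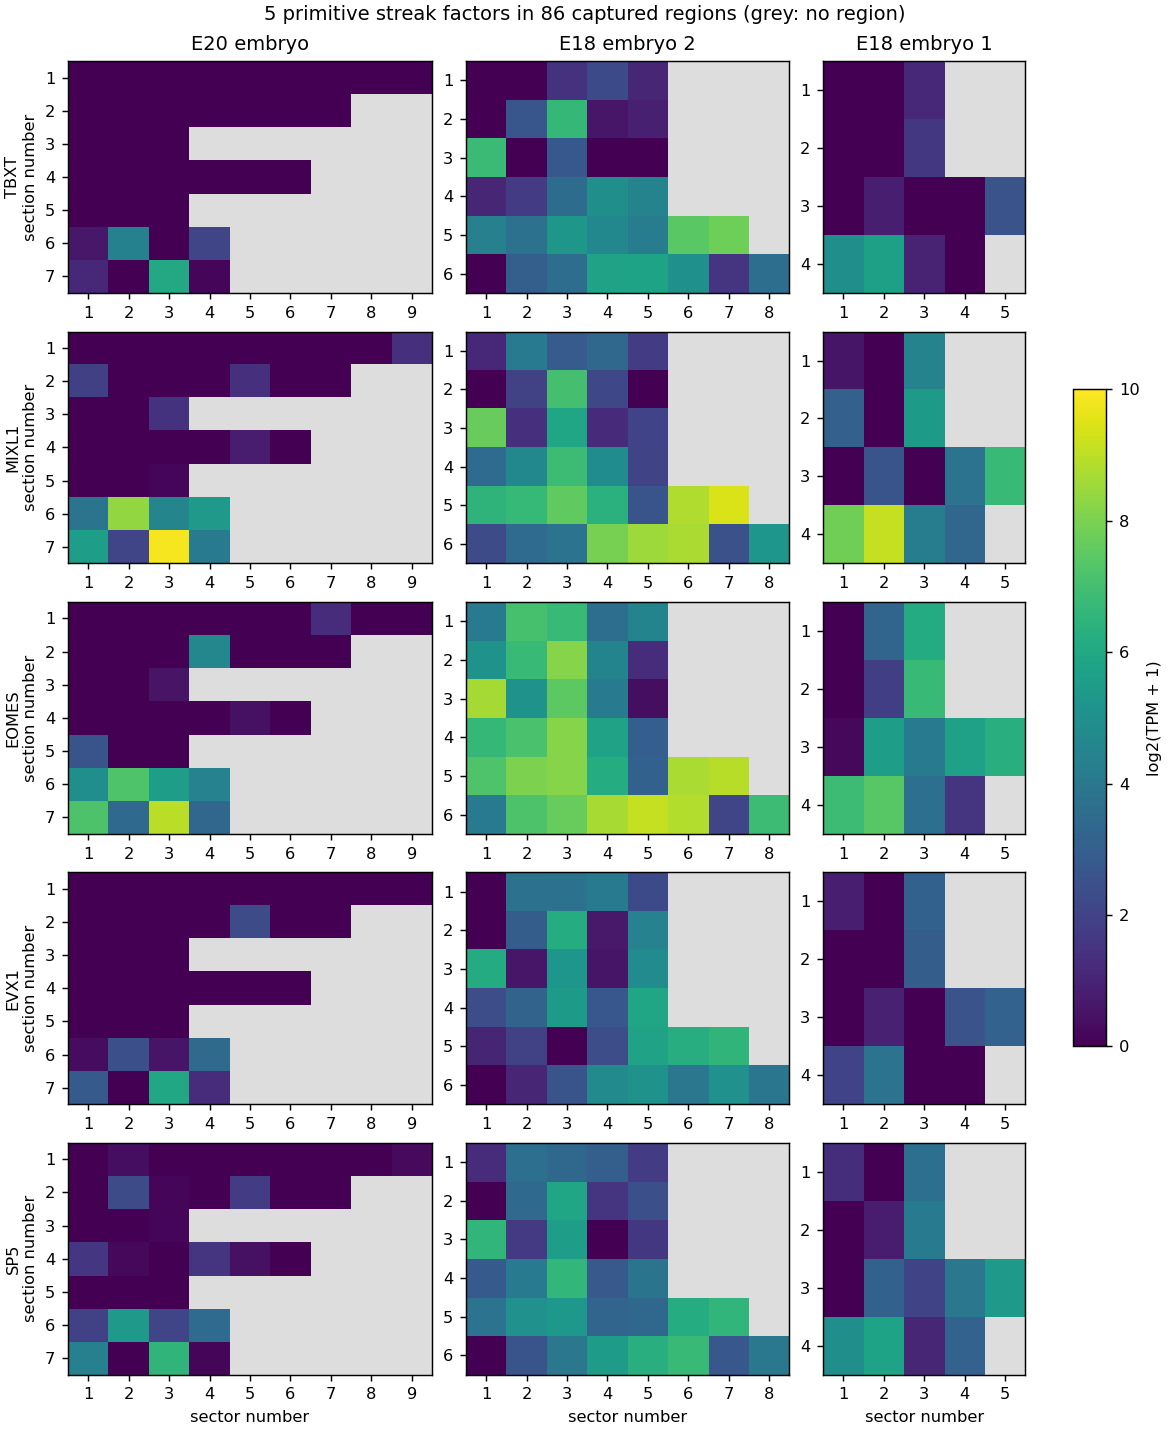
Level of each factor in every captured region as log2(TPM + 1) on 1 colour scale, with section number down and sector number across each panel, and grey where no region was captured. E20 sections 1 to 5 are dark for TBXT throughout, and sector 3 of E20 section 7 and sector 7 of section 5 in E18 embryo 2 are bright for all 5 genes.

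In E18 embryo 2 the 5 factors were found together in most regions. All 5 were at 1 TPM or more in 4 of 36 E20 regions, 25 of 35 regions of E18 embryo 2 and 5 of 15 regions of E18 embryo 1, and none of them was in 18 E20 regions, 0 regions of E18 embryo 2 and 1 region of E18 embryo 1. Detection was nested: each of the 36 regions with TBXT also had MIXL1, EOMES and SP5 at 1 TPM or more, and 34 of them had EVX1. Of these 36 regions 26 are in E18 embryo 2, where MIXL1, EOMES and SP5 reached 1 TPM in 33, 34 and 32 of 35 regions. Overlap was thus largely given in that embryo. Their highest levels fell in 1 region in the E20 embryo and E18 embryo 1, and in 3 regions in E18 embryo 2. In the E20 embryo all 5 were highest in sector 3 of section 7, and in E18 embryo 1 all 5 were highest in sector 2 of section 4. In E18 embryo 2, TBXT, MIXL1 and EVX1 were highest in sector 7 of section 5, EOMES in sector 5 of section 6 and SP5 in sector 6 of section 6.

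The top sector within each section was shared in some sections and not in others. In the 2 E20 sections with TBXT, sections 6 and 7, the 5 factors shared a top sector in 1. In E18 embryo 2 the 5 factors shared their top sector in 3 of 6 sections, namely sector 3 of section 2, sector 1 of section 3 and sector 7 of section 5. Those 3 regions had 99.2, 111 and 221 TPM of TBXT and 131, 201 and 699 TPM of MIXL1. They do not share a sector number, so the streak factors did not peak at a constant numbered position in this embryo. Within each of the 4 sections of E18 embryo 1, all 5 factors peaked in 1 shared sector, the last-numbered sector of sections 1 to 3 and sector 2 of section 4. Section 4, with 4 of the 15 regions, held 90.0% of the TBXT summed over that embryo and 80.2% of the MIXL1, but 49.5% of the SP5, 43.5% of the EOMES and 36.2% of the EVX1. TBXT was 30.3 and 50.4 TPM in its sectors 1 and 2, against 1.25, 2.11 and 4.92 TPM in the peak sectors of sections 1 to 3.

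Which factor led differed by embryo. In the E20 embryo MIXL1 and EOMES had the highest TPM of the 5 in 7 regions each, SP5 in 3 and EVX1 in 1, over the 18 regions with any factor at 1 TPM. The SP5 and EVX1 leads lay in sections 1 to 5, at 4.00, 1.97 and 1.84 TPM for SP5 and 3.86 TPM for EVX1. In sections 6 and 7 MIXL1 or EOMES led in every region. EOMES led in 26 of 35 regions of E18 embryo 2, EVX1 in 6 and MIXL1 in 3. In E18 embryo 1 EOMES led in 7, MIXL1 in 6 and SP5 in 1 of 14 such regions. TBXT led in none of these regions. MIXL1 was above EOMES in 10 of 36 E20 regions, 5 of 35 regions of E18 embryo 2 and 7 of 15 regions of E18 embryo 1. Those E20 regions that lay in sections 1 to 5 had MIXL1 at only 0.12 to 2.77 TPM. The peak regions of MIXL1 were among the regions with MIXL1 above EOMES. It was 933 TPM beside 504.5 TPM of EOMES in the top E20 region. In E18 embryo 2 it was 699 beside 489 TPM in sector 7 of section 5, and in E18 embryo 1 550.2 beside 166 TPM in sector 2 of section 4.

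Within the E20 embryo the factors were found mostly in sections 6 and 7. TBXT was listed at 0 in all 28 regions of sections 1 to 5. In those 28 regions EVX1 reached 1 TPM in 1, EOMES in 3, MIXL1 in 4 and SP5 in 4, with highest levels of 3.86 TPM for EVX1, 23.7 for EOMES, 2.77 for MIXL1 and 4.00 for SP5. In the 8 regions of sections 6 and 7, MIXL1 and EOMES were at 1 TPM or more in 8, SP5 in 6, EVX1 in 5 and TBXT in 4. The marker lists moved with this split. The mean log2(TPM + 1) of the hypoblast and yolk sac endoderm list (15 genes) had section medians of 9.61, 7.06, 9.999, 9.88 and 9.78 in sections 1 to 5 and of 0.47 and 0.47 in sections 6 and 7. The epiblast list (8 genes measured) had medians of 0.54, 0.74, 0.77, 0.76 and 0.86 in sections 1 to 5 and of 5.30 and 5.44 in sections 6 and 7. The part of these marker differences in the levels of the factors was not tested.

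The 8 E20 regions with the factors were uneven. In section 6, sectors 1 to 4 had TBXT at 0.557, 19.8, 0 and 3.26 TPM and MIXL1 at 13.5, 333, 22.7 and 40.6 TPM. EOMES was 30.8, 150.0, 46.0 and 20.4 TPM in the same sectors, EVX1 was 0.263, 4.41, 0.465 and 9.96 TPM, and SP5 was 2.88, 40.6, 3.27 and 10.3 TPM. Sector 2 was thus highest for 4 of the 5 genes, and EVX1 was highest in sector 4. Sector 4 also had the highest mesenchyme list (6.73) and amnion list (7.14) of the section, beside 1.51 and 1.67 in sector 2. In section 7, sectors 1 to 4 had TBXT at 1.14, 0, 63.9 and 0.128 TPM, MIXL1 at 46.7, 3.20, 933 and 16.6 TPM, and EOMES at 149, 9.63, 504.5 and 8.90 TPM. There EVX1 was 6.13, 0, 62.3 and 1.40 TPM and SP5 was 19.7, 0, 91.0 and 0.111 TPM. Sector 3 stood above the other 3 sectors for all 5 genes. Its mesenchyme and amnion lists were at 1.56 and 1.76, beside 7.04 and 7.18 in sector 4, where EVX1 was 1.40 TPM. In section 7, unlike section 6, EVX1 thus did not peak in the sector where these lists were highest.

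The comparison of stages asked whether E20 and E18 differed, over the mean of each embryo's regions. For all 5 factors the E20 embryo lay below both E18 embryos. limma called EOMES, MIXL1 and SP5 against a spread shared over all genes, and called 0 of the 5 against each gene's own spread. As mean log2(TPM + 1), EOMES was 1.52 in the E20 embryo, against 6.10 in E18 embryo 2 and 3.95 in E18 embryo 1. The difference, E20 minus E18, was -3.51 ± 0.50 (SE; limma, Benjamini-Hochberg adjusted p = 6.63e-10). MIXL1 was 1.41 at E20, against 4.43 and 3.41 in E18 embryos 2 and 1, a difference of -2.51 ± 0.59 (limma adjusted p = 0.000691). SP5 was 0.91 at E20, against 3.64 and 2.63, a difference of -2.23 ± 0.70 (limma adjusted p = 0.0189). For TBXT the means were 0.40 at E20, against 3.05 and 1.19, and for EVX1 0.53, against 3.30 and 1.29. Their differences were -1.72 ± 0.81 and -1.76 ± 0.80 (limma adjusted p = 0.17 and 0.15). On this scale the change of a low gene is understated.

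Of all genes tested, 8.75% were called lower at E20, 2.64% higher and 11.4% in either direction, against 3 lower and 0 higher of the 5 factors. Calls below E18 made up 76.8% of all calls, and 48.5% after quantile normalization, which moved the median difference over all genes to -0.06, against -0.44 as deposited. All 5 differences lie below both medians, and after quantile normalization EOMES was at -3.43 (limma adjusted p = 0.00239), MIXL1 at -2.14 (0.0151) and SP5 at -1.64 (0.0589). With 1 E20 embryo, stage and embryo cannot be told apart. The E18 pair leaves 1 residual degree of freedom, and limma's prior degrees of freedom came out infinite, so the SEs above are those of the trend over all genes and give a factor's own E18 spread no weight. From the E18 pair alone the SE would be 1.86 for EOMES, 0.89 for MIXL1, 0.88 for SP5, 1.61 for TBXT and 1.74 for EVX1. Against these, limma without moderation called 0 of the 5 and 0 of all genes (adjusted p 0.72 to 0.81 for the 5, and 0 at an unadjusted p under 0.05). The sign also depended on the section of the E20 embryo. Taken alone against the E18 mean, E20 section 6 was higher by 1.62 for MIXL1 and 0.53 for EOMES, and section 7 by 1.49 and 0.71, whereas sections 1 to 5 were at -3.87 to -3.43 for MIXL1 and -4.95 to -4.16 for EOMES. SP5 was at 0.098 in section 6 and -0.37 in section 7, TBXT at -0.34 and -0.30, and EVX1 at -0.60 and 0.23. With the median over regions in place of the mean, the differences were -5.43 for EOMES, -3.56 for MIXL1, -3.25 for SP5, -2.30 for EVX1 and -1.52 for TBXT, and limma called 0 of the 5 and 0 of all genes tested (2 of the 5 at an unadjusted p under 0.05).

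Between the E18 embryos, embryo 2 was higher than embryo 1 for all 5 factors. As embryo 2 minus embryo 1 in mean log2(TPM + 1), the difference was 2.14 for EOMES, 2.01 for EVX1, 1.86 for TBXT, 1.02 for MIXL1 and 1.01 for SP5. A difference of 1 or more in this direction was found for 10.9% of genes tested, and the median over all genes was 0.41. After quantile normalization the median was 0.03, EOMES, EVX1 and TBXT remained at 2.09, 1.65 and 1.58, and MIXL1 and SP5 were at 0.77 and 0.61. This sets 1 embryo against 1 and has no test.

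Along the section numbers, 4 of the 5 factors rose towards the last section. The slope is the change in log2(TPM + 1) across the whole run of sections, with embryo as a block. MIXL1 rose by 4.32 ± 0.66 (SE, 86 regions; limma adjusted p = 8.51e-06), the 3rd largest slope of 15216 genes. EOMES rose by 3.38 ± 0.65 (limma adjusted p = 0.000566), TBXT by 2.46 ± 0.51 (0.00107) and SP5 by 2.28 ± 0.50 (0.00192), at ranks 8, 18 and 26. EVX1 had a slope of 1.08 ± 0.50 (limma adjusted p = 0.16) and was not called. Among all genes tested 8.81% rose along sections, 1.89% fell and 10.7% were called in all. Regions of 1 embryo are not independent, so these p-values, and those along sectors below, are too small.

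In single embryos the slope of MIXL1 was 4.92 ± 1.05 in the E20 embryo, 3.88 ± 1.04 in E18 embryo 2 and 3.97 ± 1.56 in E18 embryo 1 (SE). TBXT had 1.73 ± 0.79, 3.25 ± 0.79 and 2.36 ± 1.19 in the same order of embryos, and SP5 had 2.62 ± 0.79, 1.92 ± 0.79 and 2.31 ± 1.19. EOMES had its steepest slope in the E20 embryo, 5.20 ± 1.00, against 2.16 ± 1.00 in E18 embryo 2 and 2.03 ± 1.499 in E18 embryo 1. EVX1 followed that order with 1.95 ± 0.78, 0.57 ± 0.78 and 0.25 ± 1.17. All 15 slopes were positive. The slopes of 0 of the 5 factors differed between embryos (limma F test, adjusted p 0.26 to 0.93, 0 at an unadjusted p under 0.05), where 10.1% of genes did. The calls rest on the E20 embryo: without it the slopes were 3.91 for MIXL1, 2.98 for TBXT, 2.12 for EOMES and 2.04 for SP5 (limma adjusted p 0.10, 0.18, 0.63 and 0.47), and 9 of all genes were called. With the 3 embryo slopes tested against 0, limma called 0 of the 5 factors and 0 of all genes (adjusted p 0.17 for MIXL1 and 0.87 for the other 4, and 4 of the 5 at an unadjusted p under 0.05).

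**Figure D2:**
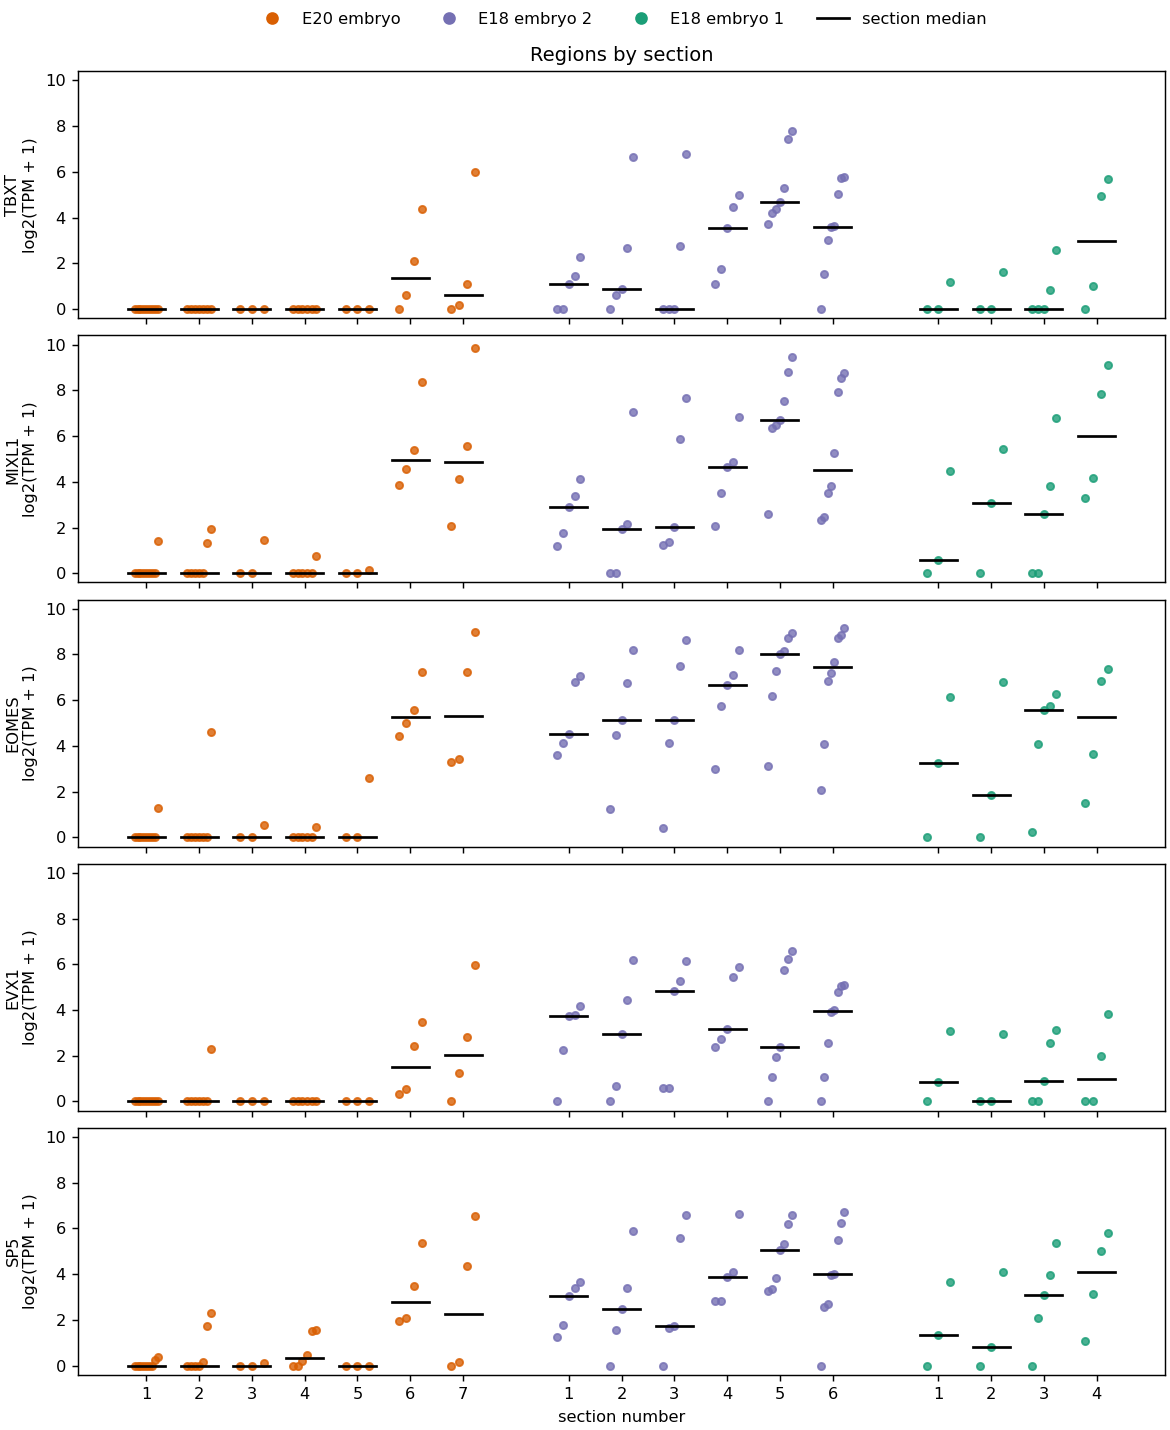
Level of each factor as log2(TPM + 1) in the regions of each section, with points in a section set out by value and a bar at the section median. E20 medians are 0 for TBXT, MIXL1, EOMES and EVX1 in sections 1 to 5, and the section medians of MIXL1 are highest in sections 6 and 7 of the E20 embryo, section 5 of E18 embryo 2 and section 4 of E18 embryo 1.

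A test for any difference between sections, with no order assumed, called MIXL1, EOMES and TBXT (limma F = 5.39, 3.74 and 2.98, adjusted p = 3.14e-05, 0.00196 and 0.0139), 3 of 5 against 12% of all genes. SP5 (F = 2.11, adjusted p = 0.12) and EVX1 (F = 0.83, adjusted p = 0.91) were not called. Without the E20 embryo limma called 0 of the 5 and 0 of all genes, and 2 of the 5 were at an unadjusted p under 0.05. Within E18 embryo 2 the rise was not even: section medians of TBXT were 1.11, 0.856, 0, 10.6, 24.7 and 11.1 TPM from section 1 to 6, and those of MIXL1 were 6.41, 2.86, 3.08, 24.1, 103.7 and 24.95 TPM. Section 5 held the highest median of TBXT, MIXL1, EOMES and SP5 in that embryo. In E18 embryo 1 the medians from section 1 to 4 were 0, 0, 0 and 15.7 TPM for TBXT and 0.476, 7.36, 5.10 and 123 TPM for MIXL1.

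Along the sector numbers of a section EVX1 alone among the 5 was called. Its slope was 1.61 ± 0.48 (SE, 86 regions, section as a block; limma adjusted p = 0.0418), where 2.48% of genes rose along sectors and 3.24% were called in either direction. TBXT had 0.39 ± 0.49, MIXL1 0.52 ± 0.61, SP5 0.45 ± 0.50 and EOMES -0.52 ± 0.61 (limma adjusted p 0.72 to 0.75). The EVX1 slope was 0.41 ± 0.72 in the E20 embryo, 3.06 ± 0.75 in E18 embryo 2 and 1.34 ± 1.03 in E18 embryo 1, and it was not called without E18 embryo 2 (0.71, limma adjusted p = 0.76). EOMES ran in both directions, with -0.48 ± 0.90 in the E20 embryo, -2.34 ± 0.94 in E18 embryo 2 and 2.86 ± 1.29 in E18 embryo 1. The differences between embryos in sector slope were not called for 5 of 5 factors by limma's F test, where 0.480% of genes were. EOMES (F = 5.29, unadjusted p = 0.00711, adjusted p = 0.19) and EVX1 (F = 3.33, unadjusted p = 0.0413, adjusted p = 0.34) were under an unadjusted p of 0.05. The EVX1 call was also lost with a pseudocount of 0.1, with no filter and after quantile normalization, at slopes of 2.45, 1.61 and 1.53 (limma adjusted p 0.0663, 0.0512 and 0.0532). With the mesenchyme list's level as a covariate the slope was 1.75 (limma adjusted p = 0.20), and 1 gene of all tested was called, against 493 without it.

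A curved pattern across sectors, allowing a peak or trough within a section, was called for 0 of the 5 factors by limma's F test, against 3.17% of genes. EVX1 came nearest (F = 5.73, unadjusted p = 0.0048, adjusted p = 0.0897) and was the 1 factor under an unadjusted p of 0.05.

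**Figure D3:**
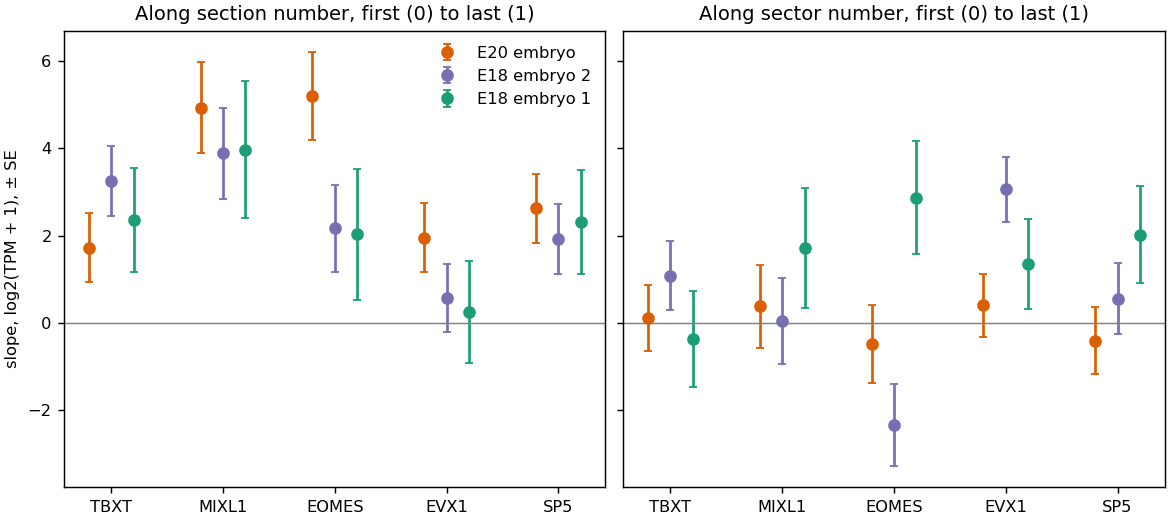
Slope of each factor along section number (left) and sector number (right) in each embryo, as the change in log2(TPM + 1) from first to last, with points for the estimate and bars for ± 1 SE. Section slopes lie above 0 for 5 of 5 factors in each embryo, and sector slopes of EOMES lie at -2.34 in E18 embryo 2 and 2.86 in E18 embryo 1.

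EVX1 and EOMES parted within E18 embryo 2. In sector 5 of sections 2, 3, 4 and 5 and in sector 7 of section 6, EVX1 was 20.4, 27.04, 57.2, 52.6 and 32.1 TPM, while EOMES was 1.40, 0.310, 6.88, 7.69 and 3.26 TPM. A sixth region of the same kind, sector 4 of section 1, had 17.1 TPM of EVX1 and 11.2 TPM of EOMES. These 6 regions are the ones in which EVX1 led the 5 factors, and they were described after their values were seen. TBXT in the first 5 was 0.856, 0, 21.01, 17.2 and 1.88 TPM and MIXL1 was 0, 3.08, 3.17, 5.03 and 4.57 TPM. MIXL1, like EOMES, was thus low there, while TBXT was above EOMES in sector 5 of sections 4 and 5.

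Markers of mesenchyme and amnion were high in those regions, and in others with less EVX1. The extraembryonic mesenchyme list (13 genes) was at 7.64, 7.65, 7.24, 6.44 and 6.14 in the 5 regions and 8.24 in the sixth, against a median of 2.51 and a range of 1.24 to 8.24 over the embryo. The amnion list (12 genes) was at 6.81, 6.01, 5.87, 5.47 and 4.97, and 5.97 in the sixth, against a median of 3.20. In the other 6 regions of the embryo with a mesenchyme list above 3.00 (sector 4 of sections 2 to 5, sector 5 of section 1 and sector 8 of section 6), that list was at 5.83 to 6.26 and the amnion list at 4.68 to 5.78, while EVX1 was 0.485 to 14.1 TPM. The blood and endothelium list (9 genes measured) was at 3.70 to 4.54 in the 6 regions led by EVX1 and at 3.26 or less in the others. Defining genes went the same way as the lists: COL3A1, a fibrillar collagen of mesenchyme, was 2306, 2155, 1177, 522 and 198 TPM, and SOX2, a pluripotency factor of the epiblast, was 0.414, 1.68, 0, 1.78 and 0.0319 TPM. CDX2, a posterior homeobox factor, was 3.61, 2.96, 40.2, 57.3 and 88.3 TPM, against a median of 3.55 TPM over the embryo. It was thus near its median in sector 5 of sections 2 and 3. WNT5B was 35.97, 83.1, 99.4, 107 and 238 TPM, against a median of 10.2 TPM. The values of these single genes are for the first 5 regions and leave out the sixth. Whether EVX1 RNA in these regions came from mesenchyme, amnion or other cells captured with them was not tested.

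The reverse combination was found in more than 1 section of the same embryo. In sectors 2 and 3 of section 6, EOMES was 145.6 and 204.7 TPM and EVX1 was 1.13 and 4.97 TPM. In sector 1 of section 4 they were 99.45 and 4.17 TPM. In section 5, sectors 1 to 3 had EOMES at 152, 257 and 286 TPM and EVX1 at 1.07, 2.88 and 0 TPM. FOXA2, a factor of node and endoderm, was 135, 212 and 262 TPM there, and GSC, an organiser homeobox gene, was 62.4, 82.3 and 49.8 TPM. Sectors 6 and 7 of that section had both genes, with EOMES at 418 and 489 TPM and EVX1 at 73.7 and 93.5 TPM. TBXT was 173.5 and 221 TPM, MIXL1 449.9 and 699 TPM, and SP5 72.5 and 94.3 TPM in those sectors. The nascent mesoderm genes MESP1, TBX6 and RSPO3 were at 139 and 88.2, 68.2 and 57.3, and 411 and 362 TPM. FOXA2 was 64.9 and 14.4 TPM. This split between nascent mesoderm and node genes held within section 5 and not throughout. In sector 6 of section 6, EOMES was 462 TPM, MIXL1 426, SP5 104.8, TBXT 31.6 and EVX1 14.8 TPM, and the definitive endoderm and node list was at 5.76, its highest in the embryo, beside 4.14 for the nascent mesoderm list. In sector 2 of section 4 of E18 embryo 1, where all 5 factors peaked, the lists were at 5.85 and 3.04.

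**Figure D4:**
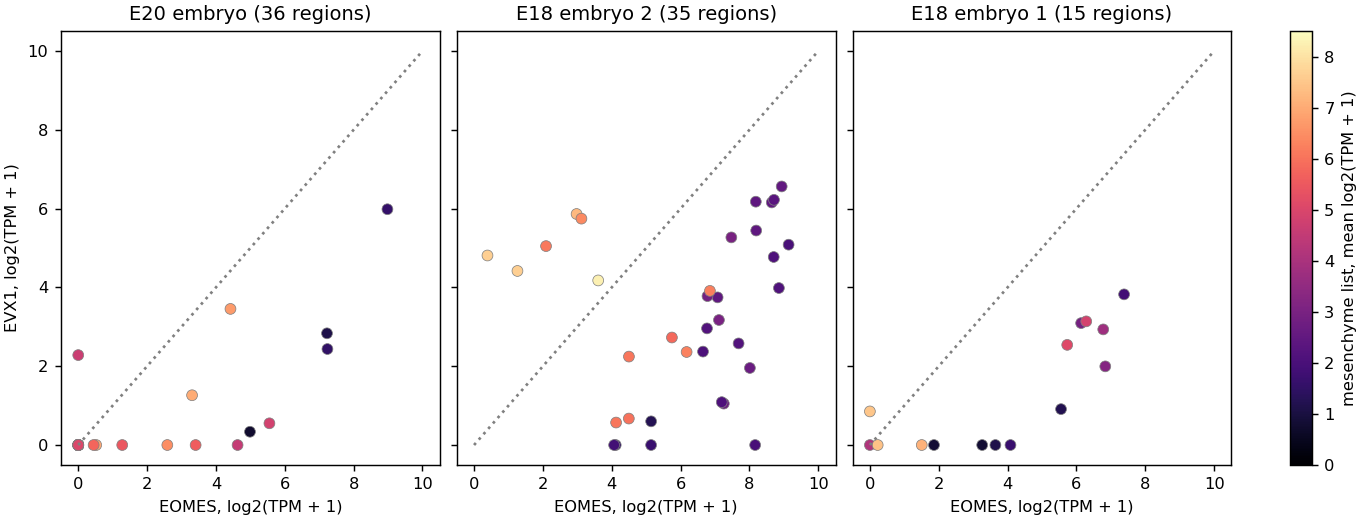
EVX1 against EOMES, both as log2(TPM + 1), with 1 point per region, a panel per embryo, a dotted line of equality and colour for the mean log2(TPM + 1) of the mesenchyme list. In E18 embryo 2 the 6 regions above the line are pale, with mesenchyme list levels of 6.14 to 8.24.

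Across regions the factors followed each other, EOMES and EVX1 least. Pearson's r on log2(TPM + 1), centred on each embryo, had a median of 0.76 over the 10 pairs (n = 86 regions, which share embryos, sections and the TPM scale). The closest pair was MIXL1 and SP5 at 0.87, followed by TBXT and MIXL1 at 0.83, MIXL1 and EOMES at 0.83 and TBXT and SP5 at 0.81. EOMES and SP5 were at 0.77, EVX1 and SP5 at 0.75, TBXT and EOMES at 0.65, TBXT and EVX1 at 0.65 and MIXL1 and EVX1 at 0.62. EOMES and EVX1 were at 0.44, made up of 0.75 over the 36 regions of the E20 embryo, 0.15 over the 35 of E18 embryo 2 and 0.80 over the 15 of E18 embryo 1. MIXL1 and EVX1 were likewise least alike in E18 embryo 2, with 0.86, 0.44 and 0.79 in the same order of embryos. MIXL1 and SP5 held 0.88, 0.88 and 0.85 in the 3 embryos. Centred on section, EOMES and EVX1 were at 0.33 over all regions. In the E20 embryo, E18 embryo 2 and E18 embryo 1 they were then at 0.47, 0.13 and 0.82. With this centring MIXL1 and EOMES went from 0.89 to 0.57 in the E20 embryo, while TBXT and MIXL1 went from 0.86 to 0.88. The E20 values of EOMES with EVX1 and with MIXL1 thus came partly from differences between sections.

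The genes most like each factor, by the same r over 86 regions, were signals, antagonists and other streak genes. FGF17, a streak FGF ligand, was among the 5 most like MIXL1 (0.88), EOMES (0.83), SP5 (0.83) and TBXT (0.78). LHX1, a LIM homeobox factor of the streak, was among those of EOMES (0.84), MIXL1 (0.82) and SP5 (0.79). TBXT had FGF4 (0.80), DKK4 (0.80), NODAL (0.75) and BTN1A1 (0.74) beside FGF17. MIXL1 had DKK4 (0.85), KHDC3L (0.84) and BTN1A1 (0.80). EOMES had ZIC2 (0.84), KHDC3L (0.82) and OTX2 (0.80), the first and last being factors of anterior ectoderm. SP5 had BTN1A1 (0.82), KHDC3L (0.78) and DLL3 (0.76). BTN1A1 and KHDC3L are named by the rule of highest r alone.

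EVX1 shared none of its 5 closest genes with the other 4 factors. They included NKD1, a WNT feedback inhibitor (0.77), WNT5B, a WNT ligand (0.75), MESP1, a bHLH factor of nascent mesoderm (0.74), and VENTX, a homeobox factor (0.72). DKK4, a WNT antagonist, held 0.91 with TBXT in the E20 embryo, 0.71 in E18 embryo 2 and 0.98 in E18 embryo 1. FGF17 held 0.91, 0.84 and 0.95 with MIXL1 in the same order of embryos.

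Against the marker lists, r was taken within each embryo. The nascent mesoderm list (13 genes) ran with all 5 in each embryo: r was 0.72 to 0.89 in the E20 embryo (n = 36 regions), 0.52 to 0.82 in E18 embryo 2 (n = 35) and 0.47 to 0.87 in E18 embryo 1 (n = 15). The list's mean log2(TPM + 1) was 0.33 to 5.18 in E20 regions, 0.90 to 5.71 in E18 embryo 2 and 0.58 to 3.98 in E18 embryo 1. The definitive endoderm and node list (12 genes) had r of 0.74 and 0.62 with TBXT and MIXL1 in the E20 embryo, 0.44 and 0.58 in E18 embryo 2, and 0.97 and 0.93 in E18 embryo 1, its highest. It was at 5.80 and 5.85 in sectors 1 and 2 of section 4 of E18 embryo 1, the 2 regions with most TBXT there. By rank the values of both lists in the E20 embryo were lower, and the reason was not tested. Spearman's rho there was 0.38 to 0.68 for the nascent mesoderm list with the 5 factors. It was 0.35 and 0.21 for the definitive endoderm and node list with TBXT and MIXL1. The epiblast list had r of 0.55 to 0.85 with the 5 factors in the E20 embryo, where it marks sections 6 and 7. In E18 embryo 2 it had r of 0.69 with EOMES and -0.26 with EVX1 (Spearman's rho 0.48 and -0.28).

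EOMES was the factor that ran most against the mesenchyme and amnion lists in E18 embryo 2, with r of -0.71 and -0.73, beside 0.21 and 0.23 for EVX1. Spearman's rho was weaker for EOMES, at -0.48 and -0.61, beside 0.36 and 0.29 for EVX1. In the E20 embryo EOMES had r of -0.54 and 0.33 with these lists, and in E18 embryo 1 -0.43 and -0.71. The blood and endothelium list gave the same contrast in E18 embryo 2, with r of -0.74 for EOMES and 0.34 for EVX1 (rho -0.56 and 0.335). Its levels there were 1.35 to 4.54. With the hypoblast and yolk sac endoderm list r was -0.79 to -0.53 for the factors in the E20 embryo, 0.07 to 0.34 in E18 embryo 2 and 0.51 to 0.79 in E18 embryo 1, where it was at 0.36 to 5.43. The trophoblast list (7 genes measured) and the primordial germ cell list (6 genes) stayed under 4.70 and 3.90 in every region. These correlations share libraries and captured pieces and are descriptions.

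**Figure D5:**
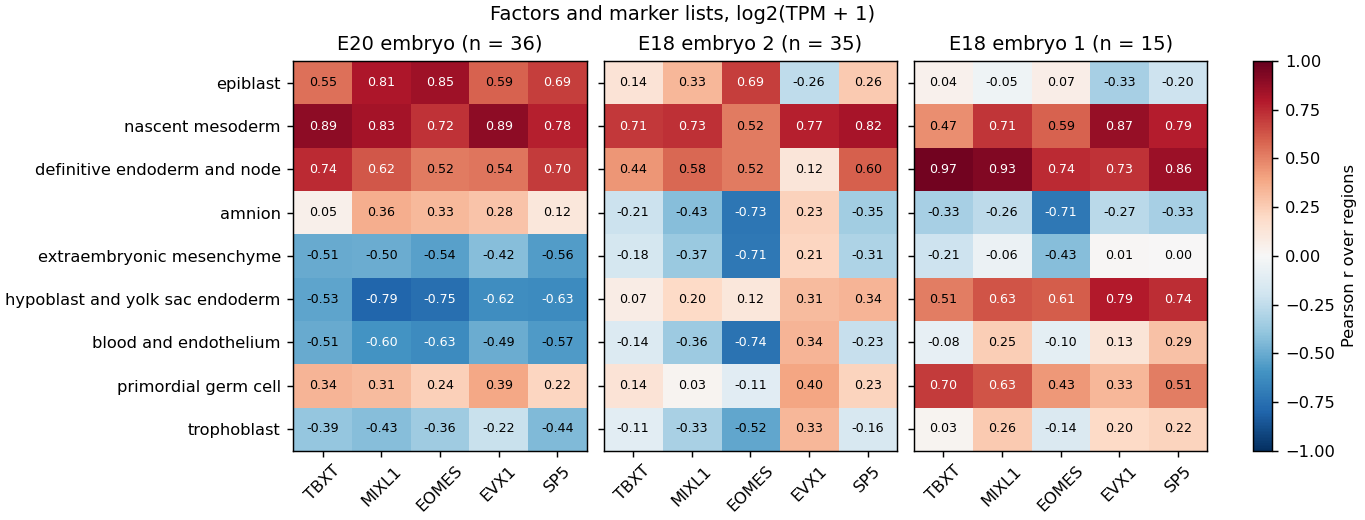
Pearson's r between each factor and the mean log2(TPM + 1) of each marker list over the regions of an embryo, from blue (negative) to red (positive). The nascent mesoderm row is positive in 15 of 15 cells, and the mesenchyme and amnion cells of EOMES are blue in E18 embryo 2 (-0.71 and -0.73), beside 0.21 and 0.23 for EVX1.

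Other genes of the streak pathways were read from lists, as counts beside the median and the share called of all genes. That share was 8.75% lower and 2.64% higher at E20, 8.81% rising and 1.89% falling along sections, and 2.48% rising and 0.762% falling along sectors. Calls at E20 rest on the spread shared over genes, as for the 5 factors. They also rest on means in which 28 of the 36 E20 regions are from sections 1 to 5. A lower mean was not always a lower peak. FOXH1 reached 525 TPM at E20, against 363 and 234 TPM in E18 embryos 2 and 1. TDGF1 reached 242 TPM, against 210.5 and 227 TPM, whereas BMP4 reached 183 TPM, against 398 and 896 TPM. Of 15 signals that act on the streak, 4 were lower at E20 and 0 higher (FGF17 by -3.44, TDGF1 by -3.28, WNT5B by -2.37 and BMP4 by -1.75 in log2), with a list median of -1.54 beside -0.44 for all genes. Along sections 5 of the 15 rose and 0 fell, among them FGF17 by 5.05, FGF4 by 2.21, TDGF1 by 2.10 and NODAL by 2.09, with a median slope of 1.17 beside 0.11. Along sectors the NODAL co-receptor TDGF1 was the 1 called, at -1.71. Among 21 receptors and transducers tested, 5 were lower at E20, led by FOXH1, the SMAD partner of NODAL signalling (-4.07), FGFR1 (-2.998), ACVR2B (-2.53) and TCF7 (-1.86). FOXH1 (2.90), ACVR2B (1.54) and TCF7L1 (0.88) rose along sections and 0 fell. LEF1 (2.10) and CTNNB1 (1.38), both of the WNT pathway, rose along sectors and 0 fell.

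Of 8 secreted antagonists tested, 6 rose along sections, led by the WNT antagonist DKK4 (4.66), the NODAL and BMP antagonist CER1 (4.24) and the BMP antagonist CHRD (3.66), and 1 fell, the WNT antagonist FRZB (-1.72). The median slope of the list was 2.02. At E20 4 were lower, CER1 (-2.65), CHRD (-2.33), SFRP2 (-2.29) and SFRP1 (-1.61), and FRZB was higher (3.10). Along sectors SFRP2 (-2.28) and SFRP1 (-1.71) fell and 0 rose. Among 12 WNT target genes tested, to which SP5 belongs by its known regulation, DKK1 rose along sections (2.25), LGR5 was lower at E20 (-2.19) and LEF1 rose along sectors (2.10), each the single call. A count of 1 in 12 is near the share of all genes for sections and stage. The median slope of that list along sections was 0.40.

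Targets and partners of the T-box factors numbered 19 tested. Along sections 6 rose and 0 fell, led by LHX1 (3.96), GSC (3.03), FGF4 (2.21) and DLL3 (1.44). At E20 4 were lower and 0 higher, LHX1 (-3.21), DLL3 (-2.97), APLNR (-2.35) and CDH1 (-2.15). SNAI2 (1.91) and CDH11 (1.52), genes of mesenchymal cells, rose along sectors and 0 fell. Of 12 other T-box genes tested, 0 were called for stage, TBX5 fell along sections (-0.72) and TBX3 rose along sectors (1.79). Of 7 other SP genes tested, SP2 (0.93) and SP4 (0.90) rose along sections, and 0 were called for stage or sector. Of 12 homeobox genes of the streak and axis tested, LHX1 (3.96), OTX2 (3.63), GSC (3.03) and NOTO (1.10) rose along sections and 0 fell. OTX2 (-4.10), LHX1 (-3.21) and NKX1-2 (-2.47) were lower at E20. Along sectors the genes that rose, as EVX1 did, included HOXB2 (1.75), and OTX2 fell (-2.29). The section slopes of these genes share the limit given for the 5 factors, since 9 of all genes passed without the E20 embryo.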

How the data were processed

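RNA of 86 laser-captured regions was measured, with the regions placed by stage, embryo, section and sector from the sample titles. The authors deposited 1 table of TPM per gene, and the submitters' processing notes name fastp, HISAT2 and StringTie without versions. In the sources used here, genome build, annotation and counting strand are not given. The 86 columns sum to 495547.3 to 777987.5 TPM. TPM gives no counts, so no count model or counting interval was used.

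Genes with 1 TPM or more in at least 10 regions (15216) were taken to log2(TPM + 1) and modelled in limma 3.58.1 (trended eBayes; R 4.3.3), with Benjamini-Hochberg adjustment over all of them at 0.05. For the stage, the regions of an embryo were averaged and 1 E20 embryo set against 2 E18 embryos, where limma's prior degrees of freedom were infinite, so that test uses the spread of all genes. Sections were numbered from 0 (first) to 1 (last) within an embryo, with embryo as a block, and sectors likewise within a section, with section as a block. Per-embryo slopes, any difference between sections, and a curved sector pattern were tested by moderated F tests. The labels do not say that regions are independent, and p-values over regions treat them so. The models were tested on simulated data. For sections and sectors the simulated noise was independent between regions, so this does not cover regions that share an embryo or section. Correlations used numpy 2.4.6 and scipy 1.17.1, and figures matplotlib 3.10.9.

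The 5 factors and the marker and pathway lists were chosen with earlier results of these data known. Named genes are the 5 factors, up to 4 called members of each pathway list by size, and the 5 genes with the highest r to each factor. Genes described in single regions and the HOXA genes were chosen after their values were seen. A list's level is the mean log2(TPM + 1) of its genes, and a factor was never in a list it was compared with. POU5F1, LEFTY2 and 7 list genes (among them ESRG, UTF1, CGB3, LRP5, LEFTY1 and RNF43) are not analysed here, and values of some other genes are not reported here. Alternatives were other pseudocounts, filters, scalings and summaries, covariates, and leaving out each embryo. Those added after seeing the data were the level of the mesenchyme list as a covariate, medians for the E18 pair, each gene's own spread for the stage, and leaving out embryos in the comparison of slopes.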

Additional observations from a re-analysis of the deposited data

How the results depend on the processing

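The counts of factors called were recomputed under each alternative. For the stage, 3 of 5 were called, and 0 with medians over regions or with each gene's own spread in place of limma's shared one, which leaves the differences as they were. SP5 was not called after quantile normalization (-1.64, limma adjusted p = 0.0589), without mitochondrially encoded genes (-2.33, 0.15) or with means over section means (-1.96, 0.0667). Single E20 sections turned the sign, as values without a test: section 6 for MIXL1 (1.62), EOMES (0.53) and SP5 (0.098), and section 7 for MIXL1 (1.49), EOMES (0.71) and EVX1 (0.23). For the E18 pair, all 5 were 1 log2 unit or more higher in embryo 2, and 3 were after quantile normalization or with medians. Along sections 4 were called, 0 with the embryo slopes tested against 0, and 0 to 5 when 1 embryo was left out. EOMES was not called on section means (3.52, limma adjusted p = 0.0774), and EVX1 was called without E18 embryo 2 (1.43, 0.0392). Of the 3 called for any difference between sections, 0 to 3 were with 1 embryo left out, EOMES was not with genes detected per region as a covariate (0.0533), and TBXT was not without E18 embryo 2 (0.0936). Along sectors EVX1 was called, and 0 were with a pseudocount of 0.1, no filter, quantile normalization, the embryo slopes tested against 0, or the level of the mesenchyme list as a covariate. Leaving out 1 embryo gave 0 to 1. The cause was not tested in any of these. The median r between factors was 0.76, and 0.70 to 0.73 with Spearman's rho, a pseudocount of 0.1 or centring on section, and 0.74 to 0.83 with 1 embryo left out. No paired analysis was possible because there is 1 E20 embryo, so the stages share fewer than 2 embryo numbers. A shared number would not make a pair either, since an E20 embryo and an E18 embryo are different embryos. With 3 embryos, and TPM of unknown depth from regions of 5 to 50 cells, differences between embryos below the spread of the E18 pair cannot be seen.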

Other observations

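EVX1 is the neighbour of HOXA13 in the RefSeq annotation of the assembly T2T-MFA8v1.1, at the end of the HOXA cluster. The order of the genes is used here for names only, since the build of the deposited table is not known. In E18 embryo 2, HOXA13 was 83.3, 107.9, 87.3, 86.9 and 24.1 TPM in the 5 regions with EVX1 and little EOMES (sector 5 of sections 2 to 5 and sector 7 of section 6), and HOXA10 was 86.8, 122, 85.1, 159 and 77.9 TPM. In sectors 6 and 7 of section 5, where EVX1 was highest in that embryo (73.7 and 93.5 TPM), HOXA13 was 0 and 6.24 TPM and HOXA10 was 0.944 and 2.13 TPM. EVX1 was therefore found both with HOXA13 and HOXA10 and where both were low. Over the 35 regions of E18 embryo 2, r with EVX1 was 0.31 for HOXA10 and 0.29 for HOXA13, and r with EOMES was -0.80 for HOXA10 and -0.69 for HOXA13. Both HOXA genes were picked after their values were seen.

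In the same annotation 1 long non-coding gene overlaps EVX1 and 1 overlaps SP5, while TBXT, MIXL1 and EOMES are overlapped by none. Whether the authors' counting used strand is not stated, so reads of an overlapping gene cannot be told apart from those of EVX1 or SP5.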
